A study of Homo sapiens with 2 samples.

Results

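The miRNAs described here are the arms of miR-28, miR-151a, miR-151b and miR-708, which earlier work traces to copies of LINE2, an ancient family of retrotransposons. They were chosen by name, and all 7 names (hsa-miR-28-5p, hsa-miR-28-3p, hsa-miR-151a-5p, hsa-miR-151a-3p, hsa-miR-151b, hsa-miR-708-5p and hsa-miR-708-3p) are among the 2218 mature miRNAs of the deposited table. Small RNA of K562 cells, an established human erythroleukaemia line, was sequenced in 2 groups. The control cells were transduced with a lentivirus for GFP and the other cells with a lentivirus that overexpresses QKI5, a nuclear form of the RNA-binding protein Quaking, so all cells carried a lentivirus. Each group is 1 library, so no difference below has a replicate check, and no test of the treatment could be made.

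A miRNA is cut from a hairpin precursor, first in the nucleus and then in the cytoplasm, into a duplex of a 5p and a 3p arm. One arm is usually kept in the silencing complex, where bases 2 to 8, the seed, direct it to target mRNAs, and the other is mostly degraded. Hairpins of the miR-28 family are thought to have formed where LINE2 copies came to lie next to each other in opposite orientation, so that their RNA folds back on itself. miR-28 has been studied in blood cells as a repressor of the thrombopoietin receptor, miR-151a in the migration of liver cancer cells, and miR-708 in the response to stress of the endoplasmic reticulum. miR-28-5p, miR-708-5p and miR-3139 are counted as 1 seed family.

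The sequences of 3 arms and of the seed relative miR-3139 are shown to let their likeness be seen, whose origin was not tested. They come from RefSeq (GRCh38.p14), 5′ to 3′, with the seed in capitals.
hsa-miR-708-5p: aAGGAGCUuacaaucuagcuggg
hsa-miR-3139: uAGGAGCUcaacagaugccuguu
hsa-miR-28-3p: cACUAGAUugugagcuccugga
hsa-miR-708-3p: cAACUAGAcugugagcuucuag
miR-708-5p and miR-3139 have the same seed, AGGAGCU, and no other miRNA of the table with a sequence shares a seed with these 3 arms.

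The 3p arms of miR-28 and miR-708 are near copies that begin at different bases. Laid on each other with a shift of 1 base they match at 17 of 21 positions, with a longest shared run of UGUGAGCU. The shift gives them different seeds, ACUAGAU in miR-28-3p and AACUAGA in miR-708-3p. miR-28-3p also matches the reverse complement of miR-708-5p at 16 of 20 positions, with a run of 9 bases in common. miR-708-3p, from the same hairpin as miR-708-5p, matches that reverse complement at 16 of 21 positions. As the 3p arms are near copies, these matches are not separate. ACUAA, the core of the sequence that QKI proteins are known to bind, was searched in the mature strands alone. It is in 12 of 1946 mature miRNAs of the table that have a sequence (0.617%) and in 0 of these 3 arms. ACUAG, which differs from it in the last base and was searched in the same way, is in 26 of the 1946 (1.34%). It is also in 2 of the 3 arms, miR-28-3p and miR-708-3p. These are the near copies above and share this stretch, so they do not count as 2 separate hits. Only 3 of the 7 arms had a sequence to search, and binding by QKI5 was not tested.

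In the GENCODE annotation all these hairpins lie within introns of protein-coding genes. MIR28 is in LPP on chromosome 3, a gene for a protein of cell adhesion sites. MIR151A is in PTK2 on chromosome 8, the gene of focal adhesion kinase, and MIR708 is in TENM4 on chromosome 11. These 3 hairpins are on the strand of the host gene. MIR151B lies on chromosome 14 opposite to the strand of EVL, a gene for a regulator of actin filaments. Positions are not given because the authors' files rest on build hg19 and this annotation on GRCh38.

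With the smallest value above 0 of each library taken as 1 read, the QKI5 library held 6553945 reads. The GFP library held 23262340, which is 3.55 times as many. Listed miRNAs made up 59.5% of this total with QKI5 and 66.3% with GFP. Levels are in RPM, reads per 1000000 reads of the library. All 5 erythroid markers had reads, and their levels summed to 3982 RPM with GFP and to 3285 RPM with QKI5. They did not move together. miR-451a (2798 RPM with GFP and 2187 RPM with QKI5) and miR-144-3p (548 and 293 RPM) were lower with QKI5. miR-144-5p (32.5 and 52.3 RPM), miR-486-5p (528 and 608 RPM) and miR-210-3p (75.1 and 144 RPM) were higher. Of 12 markers of neurons, muscle, liver, epithelium and stroma, 11 had a read with GFP and 10 with QKI5. Their sums were 3033 RPM with GFP and 2986 RPM with QKI5. Nearly all of it was miR-145-5p (2588 and 2572 RPM) and miR-9-5p (378 and 332 RPM), while miR-122-5p of liver had 1 read and 0 reads. The part of other cell types in the results below was not tested.

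In both libraries miR-151a-5p held nearly all reads of these miRNAs. It made up 96.4% of the 14332 reads on the 7 arms in the QKI5 library (95% exact binomial interval 96.1% to 96.7%) and 98.2% of 31255 in the GFP library (98.0% to 98.3%). The 7 arms together were 0.368% of all listed miRNA reads with QKI5 (0.362% to 0.374%) and 0.203% with GFP (0.200% to 0.205%). All intervals here cover counting error only, and since the reads carry no molecular identifiers, 2 reads can stem from 1 molecule.

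**Figure D1:**
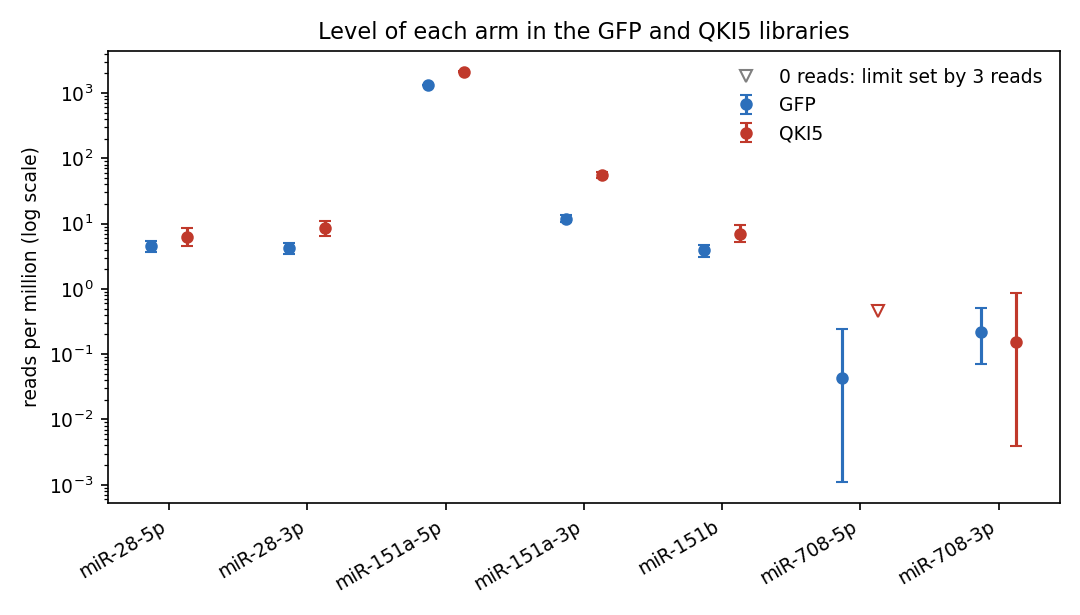
Level of each arm in RPM (log scale) in the GFP library (blue) and the QKI5 library (red), with exact 95% Poisson intervals of the reads. The triangle stands for 0 reads, drawn at the limit set by 3 reads. miR-151a-5p stands above 1000 RPM in both libraries, the miR-28 arms and miR-151b lie between 3 and 10 RPM, and the miR-708 arms rest on 0 to 5 reads.

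miR-151a-5p, the dominant arm of its hairpin, was at 1319 RPM in the GFP library (30680 reads) and at 2109 RPM in the QKI5 library (13822 reads). Its level was thus 1.60-fold higher with QKI5 (95% exact interval of the ratio 1.57 to 1.63), a log2 ratio of 0.68. Among 7 other settings of pseudocount, scaling and depth this log2 ratio ran from 0.46 to 0.83. That range is wider than the counting interval, which is 0.65 to 0.71 on the log2 scale. By level miR-151a-5p ranked 40th with GFP and 30th with QKI5. Among the 200 most abundant miRNAs its log2 ratio was the 53rd highest, which is not among the 15.0% at 2-fold or more above GFP, and 7.00% were at 2-fold or more below it.

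miR-151a-3p, the minor arm of the same hairpin, was at 55.8 RPM with QKI5 (366 reads) and at 11.9 RPM with GFP (277 reads). The QKI5 library held more of its reads although it is the shallower one. The ratio was 4.69 (4.0 to 5.50), a log2 ratio of 2.22, and its rank by level was 191st with QKI5 and 303rd with GFP. It was the 10th highest log2 ratio of the 400 most abundant miRNAs and the 9th highest of the 459 miRNAs with at least 20 reads in both libraries. Its counting interval does not overlap that of any other arm of miR-28 or miR-151.

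miR-151b was at 7.02 RPM with QKI5 (46 reads) and at 3.87 RPM with GFP (90 reads), a ratio of 1.81 (1.24 to 2.62). Its annotated sequence is contained in that of miR-151a-5p, so reads of the 2 entries cannot be told apart where they are short, and the sources used here do not say how the authors assigned them. There were 341 reads of miR-151a-5p per read of miR-151b with GFP and 300.5 with QKI5. Those quotients differed by a factor of 0.881 with an interval of 0.611 to 1.29, which spans 1. With both entries summed, the ratio of QKI5 to GFP was 1.60 (1.57 to 1.63), as for miR-151a-5p alone.

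miR-28 was a miRNA of low level, with its arms near each other. miR-28-5p was at 6.26 RPM with QKI5 (41 reads) and at 4.51 RPM with GFP (105 reads), a ratio of 1.39 whose interval of 0.942 to 2.01 spans 1. miR-28-3p was at 8.54 RPM with QKI5 (56 reads) and at 4.17 RPM with GFP (97 reads), a ratio of 2.05 (1.45 to 2.88). The log2 ratio of miR-28-3p, 1.01, lay just past 2-fold and ranked 101st of the 459 miRNAs with at least 20 reads in both libraries, the last of the 101 counted as at least 2-fold higher. Among 7 other settings of pseudocount, scaling and depth it passed 2-fold in 1, with log2 ratios from 0.66 to 1.17. At this depth the miR-28 arms could not be told apart from each other in either library, since their Poisson intervals overlap in both.

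miR-708 was barely detected. miR-708-3p had 5 reads with GFP and 1 read with QKI5, or 0.215 and 0.153 RPM, a ratio of 0.710 with an interval from 0.0150 to 6.34. miR-708-5p had 1 read with GFP and 0 with QKI5. By a limit of 3 reads, a library with no read could still hold 0.129 RPM with GFP and 0.458 RPM with QKI5, so no fold is given and a difference was not detectable at this depth. The seed relative miR-3139, from an intron of GAB1, was as low, with 3 reads for GFP and 1 for QKI5.

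Counted together, 4 of the 7 arms are among the 400 most abundant miRNAs, and 2 of these 4, miR-151a-3p and miR-28-3p, were at least 2-fold higher with QKI5. None of the 4 was at least 2-fold lower. Over all 400 miRNAs the shares were 20.8% for such higher ratios and 7.25% for such lower ones. Higher ratios thus made up 74.1% of those past 2-fold, against 54.5% under quantile normalization, 56.7% with the 10 most abundant miRNAs left out of the scaling and 60.2% with a trimmed mean. miR-28-5p fell just outside, at rank 401 with a mean of 5.3848 RPM against 5.3881 RPM at rank 400. Of the 5 arms with at least 20 reads in both libraries, all 5 had a log2 ratio above 0, as had 280 of the 459 miRNAs at that depth. These are both arms of miR-28 and of miR-151a, and miR-151b, whose reads may belong to miR-151a-5p. They therefore do not count as 5 separate miRNAs. Of the 5 arms 2 were at least 2-fold higher, beside 22.0% higher and 6.32% lower among the 459. With the 2 miR-708 arms included the median log2 ratio was 0.68 over 7 arms, against 0.12 over the 1995 miRNAs with a read in either library. The value of miR-708-5p in it rests on the pseudocount. Over the 5 arms with at least 20 reads in both libraries the median was 0.83, against 0.25 over the 459. Over the 6 arms above 3 reads in either library the median of the plain log2 ratios, with no pseudocount, was 0.77.

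**Figure D2:**
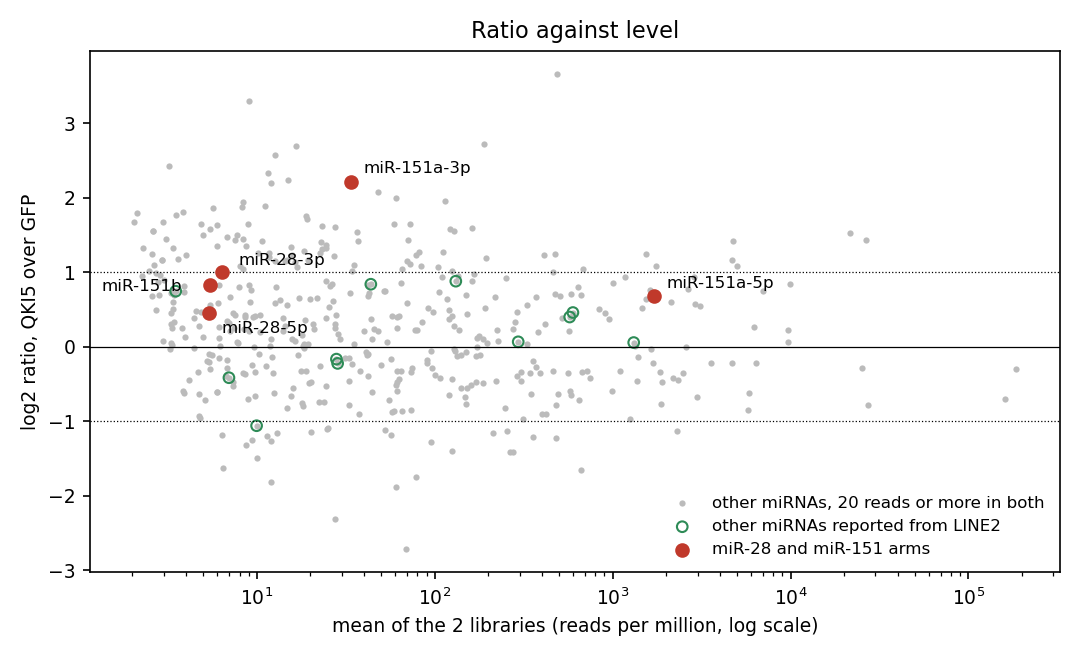
Log2 ratio of QKI5 over GFP (pseudocount 0.153 RPM) against the mean level (log scale) for the 459 miRNAs with at least 20 reads in both libraries. The miR-28 and miR-151 arms (red) all lie above 0, as do 280 of the 459, with miR-151a-3p at 2.22. Dotted lines mark 2-fold.

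The balance of the arms differed between the libraries for miR-151a. There were 111 reads of the 5p arm per read of the 3p arm with GFP and 37.8 with QKI5, a quotient that does not depend on the scaling of the libraries. The 3p arm thus made up 2.58% of the reads of the hairpin with QKI5 (2.33% to 2.85%) and 0.895% with GFP (0.793% to 1.01%). The quotient with QKI5 was that with GFP times 0.341 (exact interval 0.290 to 0.400), or -1.55 on the log2 scale. For miR-28 there were 0.732 reads of the 5p arm per read of the 3p arm with QKI5 and 1.08 with GFP, a factor of 0.676 (0.402 to 1.13), or -0.56 on the log2 scale. That interval spans 1. The 5p arm held 42.3% of the miR-28 reads with QKI5 (32.3% to 52.7%) and 52.0% with GFP (44.9% to 59.0%).

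Arm balance was compared over all hairpins that allow it. Of 122 hairpins with at least 20 reads in each arm and library, 15.6% had at least 2-fold fewer 5p reads per 3p read with QKI5 and 22.1% at least 2-fold more. The log2 change over these hairpins had a median of 0.11 and an SD of 1.13. miR-151a had the 9th lowest change and the 19th largest in size, and miR-28 the 32nd lowest. Summed over both arms, which removes the balance, the ratio of QKI5 to GFP was 1.63 for miR-151a (1.59 to 1.66) and 1.70 for miR-28 (1.32 to 2.18). The summed ratios of these hairpins thus had overlapping intervals.

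**Figure D3:**
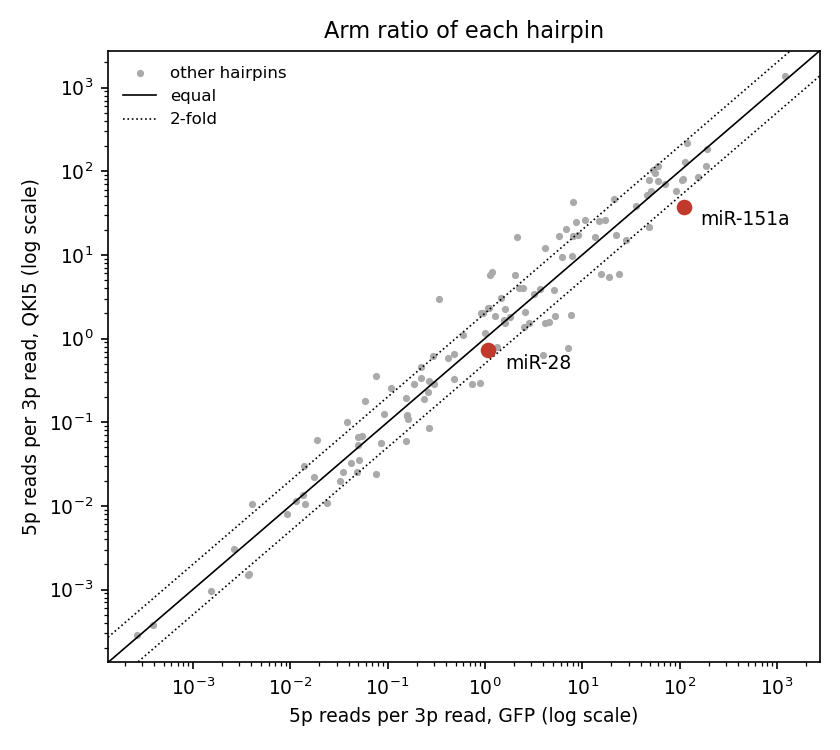
Reads of the 5p arm per read of the 3p arm in the QKI5 library against the GFP library, both on log scales, for 122 hairpins with at least 20 reads in each arm and library. miR-151a (37.8 against 111) lies below the lower dotted 2-fold line and miR-28 (0.732 against 1.08) between the lines.

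Other human miRNAs that earlier reports place in LINE2 copies were examined beside these arms. The list, recalled from that literature without a repeat annotation, holds miR-95, miR-325, miR-374a, miR-374b, miR-421, miR-493, miR-545 and miR-616, with 14 names in the table. Of the 11 with at least 20 reads in both libraries, 7 had a log2 ratio above 0 and 4 below, 0 were at least 2-fold higher, and 1 was at least 2-fold lower, beside 22.0% and 6.32% of the 459 miRNAs at that depth. With 11 miRNAs these counts are not read as a result about the list. The median over all 14 was 0.06, and it turned to -0.16 with a scaling that omits the 10 most abundant miRNAs and to -0.12 with a trimmed mean. It rose to 0.22 with columns rescaled to their listed sums and to 0.30 with a linear GC trend removed. That trend could not be removed for the arms of miR-28, miR-151 and miR-708. Whether the lists differ beyond the spread between cultures could not be tested with 1 library per group.

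The most abundant of these was miR-493-5p, a miRNA of the imprinted 14q32 region, at 1289 RPM with GFP and 1339 RPM with QKI5. Its ratio of 1.04 (1.01 to 1.06) lies below that of miR-151a-5p, which was at a like level. The intervals do not overlap, but they hold counting error only. Over the 200 most abundant miRNAs the log2 ratios had an SD of 0.86. miR-616-5p was at 92.5 RPM with GFP and 170 RPM with QKI5, a ratio of 1.84 (1.71 to 1.98), and miR-421 at 31.3 and 56.1 RPM, a ratio of 1.79 (1.58 to 2.03). miR-374b-5p was at 504 and 692 RPM, a ratio of 1.37 (1.33 to 1.42). The intervals of these 3 overlap those of miR-28-5p and miR-151b.

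miR-374a had arms that parted the other way from those of miR-151a. miR-374a-5p, its dominant arm, was at 288 RPM with GFP and 301.3 RPM with QKI5, a ratio of 1.05 (0.995 to 1.10). miR-374a-3p, its minor arm, was at 13.5 and 6.41 RPM, 2.11-fold lower with QKI5 (1.53 to 2.99). Its hairpin had 47.0 reads of the 5p arm per read of the 3p arm with QKI5 and 21.3 with GFP. The minor arm was thus the one further from 1 in both hairpins, higher with QKI5 for miR-151a and lower for miR-374a.

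The rest of the list lay within 2-fold. miR-493-3p had a ratio of 1.32 (1.27 to 1.36) and miR-616-3p of 1.72 (1.06 to 2.72). The ratios of miR-374b-3p, miR-545-5p and miR-545-3p were 0.890, 0.744 and 0.855, with intervals that span 1. miR-95 and miR-325 had at most 2 reads in either library, which allows no comparison.

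**Figure D4:**
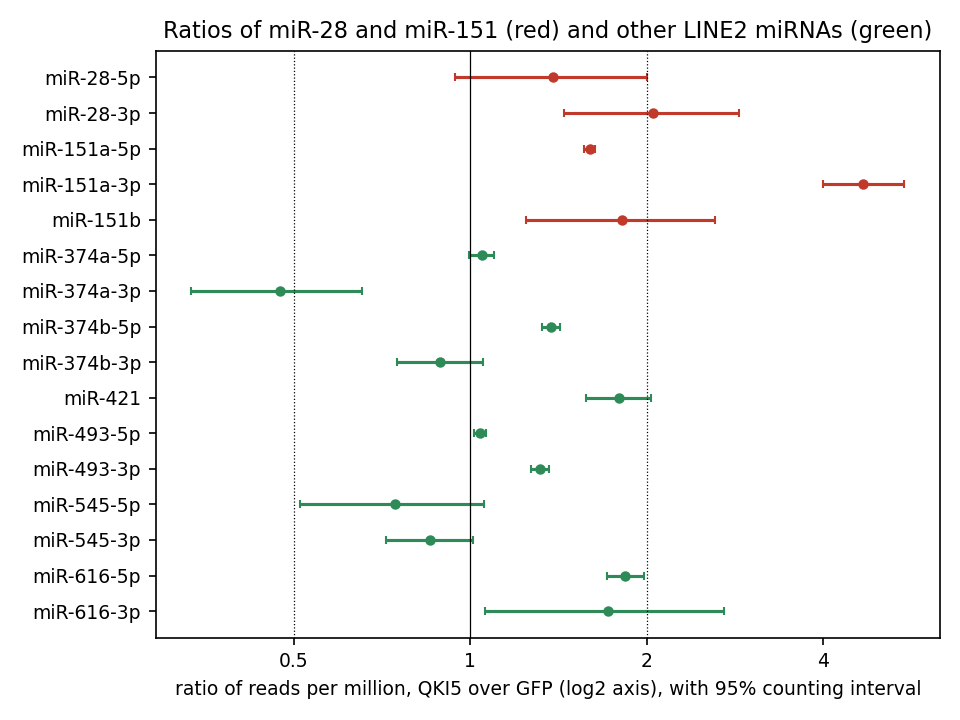
Ratio of QKI5 over GFP (log2 axis) with its exact 95% counting interval for the 5 arms of miR-28 and miR-151 (red) and 11 other miRNAs reported from LINE2 (green) with at least 20 reads in both libraries. miR-151a-3p, at 4.69, stands to the right of all others and miR-374a-3p, at 0.473, to the left.

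Other miRNAs lay close to these arms in both level and ratio, by the distance over log2 mean level and log2 ratio. With only 2 libraries, this likeness says little about a shared pattern. Nearest to miR-151a-5p were miR-337-5p (1201 RPM with GFP and 2034 with QKI5, distance 0.12) and miR-99b-5p (1209 and 1881 RPM, 0.15). Nearest to miR-151a-3p were miR-574-5p (18.3 and 77.5 RPM, 0.52) and miR-140-3p (13.6 and 41.7 RPM, 0.68), which are farther off than the neighbours of any other arm.

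The low arms had neighbours in common. miR-660-3p (4.38 and 6.56 RPM) was near miR-28-5p at a distance of 0.11 and near miR-151b at 0.27. miR-4518 (4.38 and 7.93 RPM) was nearest to both miR-28-3p and miR-151b, each at 0.18. miR-20b-5p (4.81 and 6.56 RPM) was nearest to miR-28-5p at 0.08, and miR-3130-5p (5.12 and 11.0 RPM) was the second neighbour of miR-28-3p at 0.35.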

How the data were processed

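The deposited table gives 1 value per mature miRNA and library. Its name says RPKM, but within 0.1 of a read 100.0% of the values above 0 are whole multiples of 1 step per column, 0.0430 RPM for GFP and 0.153 RPM for QKI5, so the values deposited by the authors are RPM and reads were recovered from them. Bowtie 0.12.3 and hg19 are named, per the submitters' processing notes. The miRNA annotation, the mismatches allowed and the handling of reads that match several miRNAs are not stated there.

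Log2 ratios used a pseudocount of 0.153 RPM, which understates low miRNAs. Folds are plain ratios with exact conditional binomial intervals, and changes of arm quotients are odds ratios with exact conditional intervals, all at 95%. Arms were paired by name. A miRNA was counted as apart at 2-fold. With 1 library in each group no count model could estimate a spread, so none was used. The members and lists were chosen with earlier results of these data known. The text names all members, their seed relatives, the other LINE2 list, and the 2 nearest miRNAs in level and ratio of each member with 20 reads or more in both libraries. Of the 7 arms, 3 were matched in the RefSeq sequence table, and of 2218 listed miRNAs 1946. Host genes came from GENCODE. The muscle marker fixed as miR-1-3p is listed as miR-1. Alternatives covered pseudocount, scaling, level filter, fold threshold, depth, summed entries and GC content. The code for ratios and their intervals was tested on simulated counts. The code for arm quotients, neighbours and sequences was not tested in this way. Python 3.11.15 was used with scipy 1.17.1, numpy 2.4.6, pandas 2.3.3 and matplotlib 3.10.9.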

Additional observations from a re-analysis of the deposited data

How the results depend on the processing

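The direction of all 5 arms of miR-28 and miR-151 was the same under 7 settings of pseudocount, scaling and depth. A change of pseudocount cannot turn a direction, and rescaling to the listed sums raised the ratios, so these settings could not have reversed it. Under quantile normalization the log2 ratio of miR-28-5p was only 0.10. miR-151a-3p was at least 2-fold higher in 7 of 7, with log2 ratios from 1.96 to 2.38. miR-28-3p reached 2-fold in 1 of 7. The count of arms at least 2-fold apart among the 400 most abundant was therefore 1 in place of 2 under several of these. They were a pseudocount 10 times as large or of 1 RPM, a trimmed mean and quantile normalization. The others were a scaling with the 10 most abundant miRNAs left out and 1 draw of GFP reads thinned to the depth of QKI5. Over all 400 miRNAs these settings gave 54 to 79 at least 2-fold higher and 27 to 45 lower, in place of 83 and 29. At a threshold of 1.5-fold the count of arms was 4, and the share of the 400 past that threshold was not computed. The lowest of these 4 arms, miR-151a-5p, had the 122nd highest log2 ratio of the 400. The median log2 ratio of the 7 arms, 0.68, was 0.83 with columns rescaled to their listed sums, 0.46 with the 10 most abundant left out, 0.49 with the trimmed mean, 0.52 with quantile normalization, 0.60 with thinned reads, 0.57 with miR-151b summed into miR-151a-5p, and 0.92 over the 4 arms among the 400. Under the first 4 of these, which are scalings, the median of the 459 miRNAs with 20 reads in both libraries, 0.25, was 0.41, 0.04, 0.07 and 0.0049. The median of the other LINE2 list, 0.06, was 0.22, -0.16 and -0.12 under the first 3 of them and 0.30 with a linear GC trend removed. Removal of that trend was void for miR-28, miR-151 and miR-708, since 3 of 7 arms (42.9%) had a sequence in the table used, under the 80% required. The arm change of miR-151a was -1.55 with 0.5 of a read added and -1.59 with thinned GFP reads, an alternative chosen after seeing the data. Depth limits miR-28 and miR-151b to intervals that reach from under 1.5-fold to about 2-fold or more, and leaves miR-708 undetermined. No paired analysis was possible because each group is 1 library.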

Other observations

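The minor arm had the higher ratio in miR-151a. Of the 122 hairpins with at least 20 reads in each arm and library, the arm with the lower level had the higher log2 ratio in 48 (39.3%). Among the 70 hairpins whose 5p arm dominated, as in miR-151a, this was so in 24 (34.3%), and among the 45 with at least 20 reads of the dominant arm per read of the minor arm in GFP in 20 (44.4%). The median log2 ratio was 0.29 for the dominant arms and 0.09 for the minor arms, and miR-151a-3p, at 2.22, was the highest of the 122 minor arms. The dominant arm was set by the levels of both libraries added together, so an arm higher with QKI5 was more readily named dominant. In miR-539 the 5p arm was named dominant, although GFP had 567 reads of it and 1664 of the 3p arm. These shares and medians thus depend in part on the ratios they describe, and no conclusion is drawn from them.

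Hairpins with fewer 5p reads per 3p read with QKI5 than miR-151a relative to GFP included miR-361, with a log2 change of -3.22, miR-652 (-2.62) and miR-432 (-2.02), named because they were the 3 lowest. In the GFP library miR-361 had 2211 reads of its 5p arm and 310 of its 3p arm, and in the QKI5 library 168 and 219, so its dominant arm was the one further from 1. The dominant arm of miR-151a, in contrast, was higher with QKI5. Among stromal markers, miR-145-5p was at 2588 RPM with GFP and 2572 RPM with QKI5, while miR-143-3p, from the same primary transcript, was at 0.301 and 1.68 RPM.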
